A study of Mus musculus with 24 samples.

Results

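The E2F and RB family was followed at the RNA level in CD4+ T cells with and without BAF180, across rest, activation and Th2 differentiation. Its members were taken by gene symbol, with no measured value used. Of the 10 symbols E2f1, E2f2, E2f3, E2f4, E2f5, E2f6, E2f8, Rb1, Rbl1 and Rbl2, 9 had probes on the arrays and in the table used, and E2f8 was not analysed here. These 9 genes had 16 probes, of which 13 were detected on at least 1 array and were kept, with at least 1 kept probe for each of the 9 genes. The same filter kept 10418 genes in all.

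The cells came from WT mice and from mice in which the gene of BAF180, Pbrm1, was deleted by Cre driven from the CD4 promoter/enhancer, here called BAF180-deficient. The deletion therefore starts in thymocytes and covers the T cell lineage, and any other cell in a preparation keeps the gene. The labels give Balb/c mice of 4 to 6 weeks, while the methods describe a mixed background. Each genotype was studied as resting naive cells, as naive cells after 24 hours with anti-CD3 (1 µg/ml) and anti-CD28 (2 µg/ml), as resting Th2 cells, and as Th2 cells after 1.5 hours with PMA (50 ng/ml) and ionomycin (500 ng/ml). The Th2 cells had been grown from naive cells on the same concentrations of anti-CD3 and anti-CD28, with IL-4 (10 ng/ml), anti-IFN-gamma (10 µg/ml) and, from 24 hours on, IL-2 (100 U/ml). There were 3 arrays for each genotype and state, with the replicate letters A, B and C, and 24 arrays in all.

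E2F proteins are transcription factors that bind DNA as dimers with a DP protein and control genes needed for DNA replication. E2F1, E2F2 and E2F3 are known mainly as activators, E2F4 and E2F5 as repressors that act with pocket proteins, and E2F6 as a repressor that needs no pocket protein and joins Polycomb complexes. RB and its relatives p107 (Rbl1) and p130 (Rbl2) are the pocket proteins. They hold E2Fs in check in resting cells, until cyclin-dependent kinases phosphorylate them as a T cell enters the cycle.

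E2F genes and Rbl1 are themselves known as genes with E2F sites near their start, so the start regions of the members were searched for the octamers TTTCCCGC, TTTCGCGC, TTTGCCGC and TTTGGCGC on both strands. The RefSeq windows used (build GRCm38.p6) span 250 bases before to 50 bases after an annotated start. They were given for E2f1, E2f2, E2f3, E2f6, Rbl1 and Rbl2 among the members with probes. An octamer was found in the window at the gene's start for E2f3, Rbl1 and E2f2, 1 in each and none overlapping another, and 2.26% of all 32851 windows hold one. The 3 stretches of 30 bases are shown because they carry the match, which stands in capitals and is written 5′ to 3′ on the strand of the gene.
E2f3, chr13:29986056-29986085, minus strand: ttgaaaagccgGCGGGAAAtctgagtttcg
Rbl1, chr2:157204534-157204563, minus strand: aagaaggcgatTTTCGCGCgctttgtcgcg
E2f2, chr4:136172294-136172323, plus strand: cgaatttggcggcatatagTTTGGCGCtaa
Counted with the annotated start as base 0, the match lies at bases -11 to -4 for E2f3, -18 to -11 for Rbl1 and 39 to 46 for E2f2. The windows of E2f6 and Rbl2 held no match to these letters, and that of E2f1 begins from a start 466 bases inside the gene, so it does not show the region before the gene.

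The state of the cells was checked first. The 5 T cell markers (Cd3e, Cd3g, Cd4, Cd5 and Thy1) were detected on every array. The brightest Pbrm1 probe was lower in BAF180-deficient cells in all 4 states, by 1.01 to 1.86 on the log2 scale, with adjusted p from 0.00101 to 0.121 in limma. Whether that probe lies in the deleted part of the gene is not given in the sources used here. Of the Th2 markers, Il5, Il13 and Il1rl1 were not detected on any resting naive array, and the summed level of the 5 markers was highest after stimulation of Th2 cells (18729 to 21119 in linear units, against at most 540 in resting naive cells). The sum was 841 to 2710 in stimulated naive and 1254 to 2436 in resting Th2 cells, so these states overlapped. Il1rl1 was detected on no resting Th2 array, and Il5 on 1 of 3 in each genotype. Il5 and Il13 were detected on every stimulated naive array. The resting naive preparations also held RNA of other cells. The 4 kept myeloid markers summed to 931 to 3508 on the 6 resting naive arrays and to at most 113 on the other arrays. The 4 kept B cell markers summed to 329 to 929 in resting naive, 139 to 216 in stimulated naive, 85.2 to 449 in resting Th2 and 81.1 to 217 in stimulated Th2 cells, and Cd79b was detected on all resting Th2 arrays and on 1 of 3 stimulated Th2 arrays of each genotype. The part of these cells in the results was not tested. Cd69 and Egr1, which T cells switch on early after stimulation, were on average higher in resting naive cells (11.87 and 11.64 in WT) than in stimulated naive cells (10.44 and 10.63 in WT), while Il2ra was lower (5.34 against 8.38). Between 8047 and 10689 probes were detected per array.

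Levels are given as log2 intensity after background correction and quantile normalization, for the brightest kept probe of each gene unless another is named. A level of one probe cannot be set against that of another, so only changes are compared between genes. Because RNA was measured in bulk, a change in RNA per cell and a change in the share of cells that express a gene cannot be told apart.

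**Figure D1:**
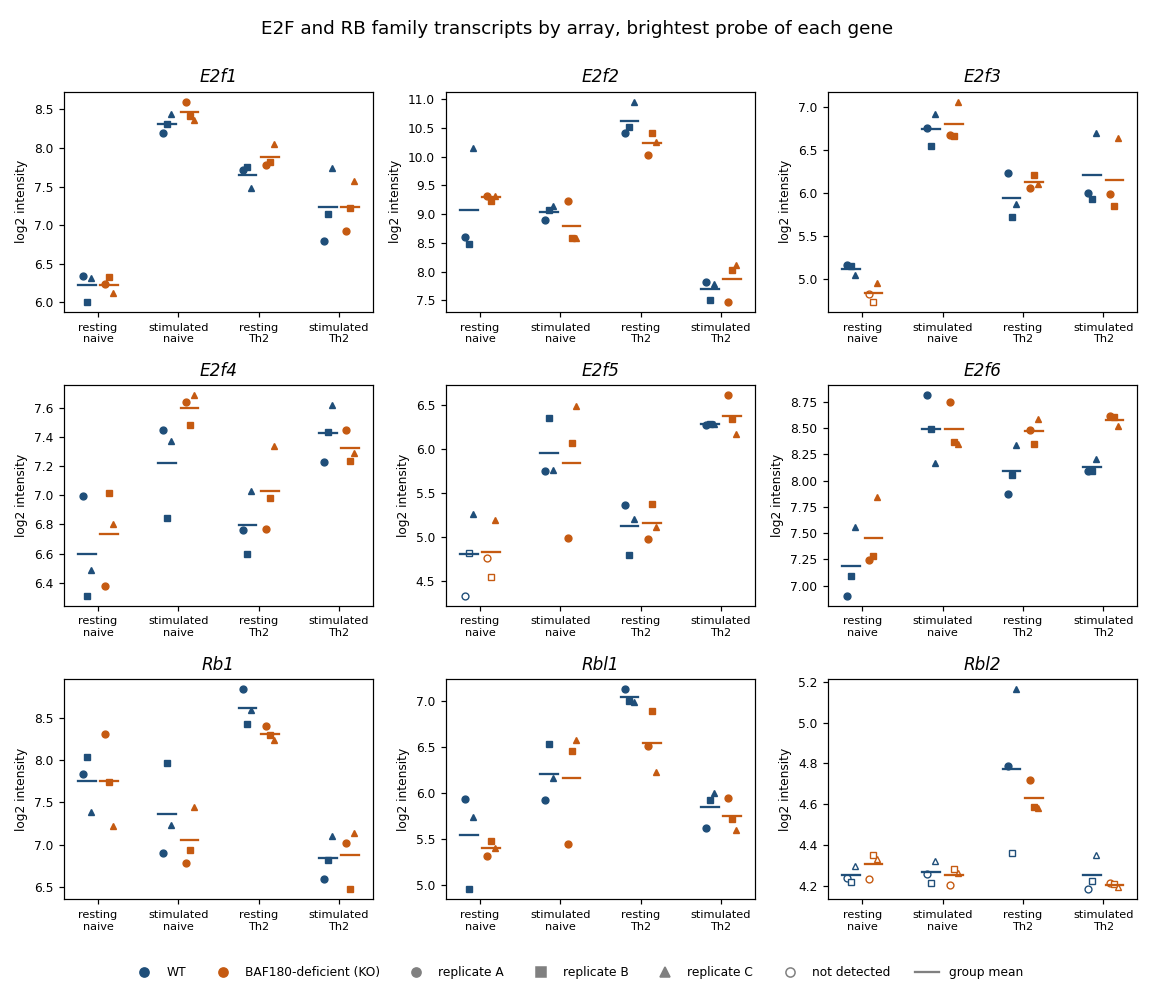
Log2 intensity (vertical axis) of the brightest probe of each of the 9 genes on each of the 24 arrays, by cell state (horizontal axis), with WT in blue, BAF180-deficient in orange, symbols for replicate letters, open symbols for arrays without detection and bars for group means. E2f1 is lowest in resting naive cells and highest after their stimulation, E2f2 is highest in resting Th2 cells, and 1 resting naive WT array (C) lies apart for E2f2.

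E2f1, the E2F best known for driving cells into DNA replication, showed the largest rise of the 9 genes on stimulation of naive cells. In WT it stood at 6.01, 6.32 and 6.35 in resting naive cells and at 8.19, 8.31 and 8.44 after stimulation. The difference of 2.09 ± 0.19 (SE), or 4.25-fold, had an adjusted p of 2.4e-08 (limma, Benjamini-Hochberg over all kept probes). In BAF180-deficient cells the values were 6.12, 6.24 and 6.34 before and 8.37, 8.42 and 8.60 after, a difference of 2.23. The groups did not overlap in either genotype. Resting Th2 cells lay between, at 7.49, 7.71 and 7.75 in WT and 7.78, 7.82 and 8.05 in BAF180-deficient cells. After stimulation of Th2 cells the WT arrays spread from 6.80 to 7.75. That group was not separated from resting Th2 WT cells, with a difference of -0.42 ± 0.19 (adjusted p = 0.118), which became -0.68 (adjusted p = 0.00695) without stimulated Th2 WT replicate C. In BAF180-deficient cells E2f1 fell by 0.64 (adjusted p = 0.0155), a call that was lost without stimulated replicate A (-0.49) or resting replicate C (-0.56). The order in both genotypes was stimulated naive, resting Th2, stimulated Th2 and resting naive. Only the middle pair in WT did not differ beyond its spread.

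Markers of cycling cells also differed between the states. Their summed level reached its highest values in resting Th2 cells, while E2f1 was highest in stimulated naive cells. Of Mki67, Top2a, Ccnb1, Bub1 and Aurka 3 were kept (Top2a, Ccnb1 and Aurka), and their summed level in linear units was 200 to 344 in resting naive cells, 883 to 1486 in stimulated naive cells, 1368 to 2585 in resting Th2 cells and 528 to 918 in stimulated Th2 cells, over both genotypes. For Aurka alone the order of these 2 states differed between genotypes. Its mean log2 levels were 8.29 (WT) and 8.54 (BAF180-deficient) in stimulated naive cells, and 8.37 and 8.46 in resting Th2 cells. The part of these markers in the changes of the family was not tested.

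E2f3, another activator, had a low signal in resting naive cells, with 5.05, 5.15 and 5.16 in WT, and was detected on 1 of the 3 BAF180-deficient arrays there. It rose by 1.62 ± 0.20 in WT (adjusted p = 1.85e-06) and by 1.97 in BAF180-deficient cells on stimulation, to 6.55, 6.76 and 6.93 and to 6.67, 6.68 and 7.07. Resting Th2 cells stood higher than resting naive cells by 0.82 in WT (adjusted p = 0.00378) and by 1.29 in BAF180-deficient cells. Stimulation of Th2 cells gave differences of 0.27 and 0.03, neither past the threshold. In WT only the lowest step of the order, resting naive below resting Th2, was larger than the spread.

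E2f2, the third activator, did not follow the other two. It was highest in resting Th2 cells, with 10.42, 10.51 and 10.96 in WT and 10.04, 10.25 and 10.42 in BAF180-deficient cells. It was lowest after their stimulation, with 7.50, 7.78 and 7.82 in WT and 7.47, 8.03 and 8.11 in BAF180-deficient cells. The fall of 2.93 ± 0.30 in WT, 7.61-fold, was the largest of the 9 genes in this comparison (adjusted p = 3.15e-07), and that in BAF180-deficient cells was 2.37 (adjusted p = 5.96e-06). The groups of resting and stimulated Th2 cells lay far apart in both genotypes. A second kept probe, which shares 17 bases with the first, fell by 3.04 and 2.48. The remaining E2f2 probe was detected on none of the 24 arrays.

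The resting naive level of E2f2 rests on arrays that differ. In WT replicates A and B gave 8.60 and 8.48, and replicate C gave 10.15, while the BAF180-deficient arrays gave 9.32, 9.23 and 9.32. Genes of red blood cells also differed between these arrays. They were picked after the values of E2f2 had been seen. Slc4a1, the anion exchanger of the red cell membrane, stood at 8.17, 4.86 and 11.80 in WT A, B and C and at 8.04, 9.09 and 9.40 in BAF180-deficient A, B and C. It was at most 4.90 on the other 18 arrays. Alas2, which starts haem synthesis in red cell precursors, was highest in WT C as well, at 7.19. Hba-a1 ranged from 8.28 in WT B to 13.55 in WT C. Car2, the carbonic anhydrase of red cells, was detected in WT C alone of the 6, at 7.35, and on 6 of the other 18 arrays at up to 6.05. Slc4a1 was lower in BAF180-deficient A than in WT A, while E2f2 was higher. Lyz2, a myeloid gene, was also highest in WT C, at 11.48, and between 8.85 and 9.93 on the other 5. The part of these cells in the E2f2 signal was not tested.

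**Figure D2:**
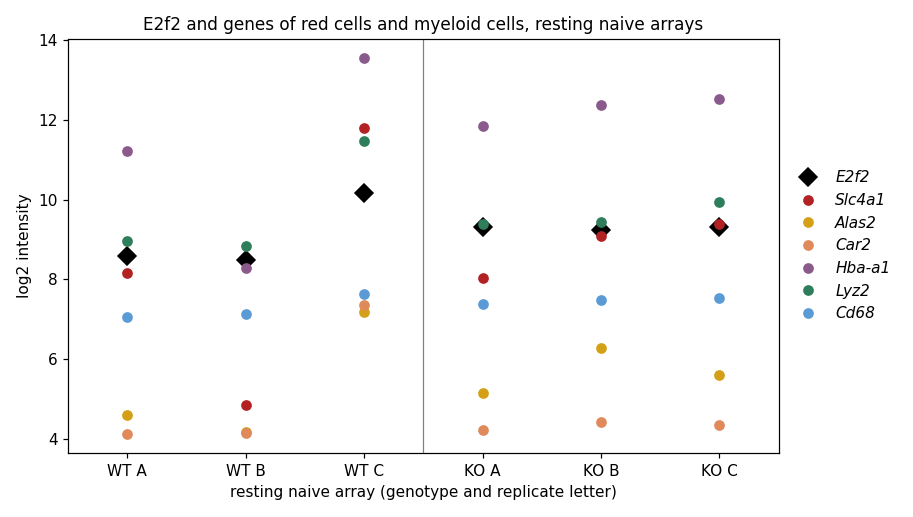
Log2 intensity (vertical axis) of E2f2 (black diamonds), of the red cell genes Slc4a1, Alas2, Car2 and Hba-a1 and of the myeloid genes Lyz2 and Cd68 (circles) on the 6 resting naive arrays (horizontal axis, genotype and replicate letter). WT C is the highest array for each of the 7 genes, with E2f2 at 10.15. WT B is the lowest for E2f2 (8.48), Slc4a1, Alas2, Hba-a1 and Lyz2, and WT A for Car2 and Cd68.

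Results for E2f2 that use resting naive cells changed with WT replicate C. Resting Th2 WT cells were higher than resting naive WT cells by 1.55 ± 0.30 (adjusted p = 4.68e-04) with all arrays and by 2.09 without it. For stimulation of naive WT cells the difference was -0.04 with it and 0.50 without it (adjusted p = 0.0665). In BAF180-deficient cells resting Th2 cells were higher by 0.95 (adjusted p = 0.0197), and stimulation of naive cells gave -0.49 (adjusted p = 0.212). The first of these was no longer below 0.05 without resting Th2 replicate B (0.85) or C (0.94) or resting naive replicate B (0.92).

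The E2Fs that act with pocket proteins as repressors, E2f4 and E2f5, passed the test in WT after both kinds of stimulation, with limits for E2f4 given below. E2f5 was near background in resting naive cells, detected on 1 of 3 arrays in each genotype, and its WT values there were 4.34, 4.82 and 5.26. It rose by 1.15 ± 0.29 on stimulation in WT (adjusted p = 0.00302) and by 1.01 in BAF180-deficient cells (adjusted p = 0.00818), the latter falling to 0.69 (adjusted p = 0.0759) without stimulated replicate C. In Th2 cells it went from 4.80, 5.21 and 5.36 at rest to 6.27, 6.29 and 6.29 after stimulation in WT, a rise of 1.16 (adjusted p = 0.00483), and it rose by 1.21 in BAF180-deficient cells. Resting Th2 and resting naive cells did not pass the test, with differences of 0.32 and 0.33.

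E2f4 is the E2F best known from resting cells. Its WT values were 6.31, 6.48 and 6.996 in resting naive cells, 6.85, 7.37 and 7.45 in stimulated naive cells, 6.60, 6.76 and 7.03 in Th2 cells at rest and 7.23, 7.43 and 7.62 after their stimulation. The naive groups overlapped, and the Th2 groups did not. The rises in WT were 0.62 ± 0.20 in naive cells (adjusted p = 0.0169) and 0.63 ± 0.20 in Th2 cells (adjusted p = 0.0249). The first was lost without resting naive replicate B (0.48) or C (0.57) or stimulated naive replicate A (0.51) or C (0.55). The second was lost without stimulated Th2 replicate B (0.63) or C (0.53) or resting Th2 replicate A (0.61) or B (0.53). In BAF180-deficient cells E2f4 rose by 0.87 in naive cells (adjusted p = 0.0016) and differed by 0.30 in Th2 cells (adjusted p = 0.343). No pair of neighbouring states in its order differed beyond the spread.

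E2f6, the Polycomb-linked member, rose when naive cells were stimulated and stayed near that level in Th2 cells. The WT values were 6.90, 7.09 and 7.56 in resting naive cells and 8.17, 8.50 and 8.81 after stimulation, a rise of 1.31 ± 0.19 (adjusted p = 1.13e-05). In BAF180-deficient cells it rose by 1.04 (adjusted p = 1.61e-04). Resting Th2 cells were above resting naive cells by 0.91 in WT and by 1.02 in BAF180-deficient cells, and stimulation of Th2 cells gave 0.04 and 0.10. Both other kept probes, which share no bases with the brightest one, passed the test in the same 2 comparisons in both genotypes, with rises of 0.67 to 1.57. The dimmest of them was detected on 1 of 3 resting naive arrays of each genotype, so its rises rest in part on background.

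Among the pocket proteins Rb1 was highest in resting Th2 cells. The WT values were 7.39, 7.84 and 8.03 in resting naive cells, 8.42, 8.59 and 8.84 in resting Th2 cells and 6.60, 6.81 and 7.11 after stimulation of Th2 cells. The fall on stimulation of Th2 cells was 1.78 ± 0.28 in WT (adjusted p = 4.87e-05) and 1.44 in BAF180-deficient cells (adjusted p = 5.45e-04), and the groups did not overlap. A second Rb1 probe fell by 1.85 and 1.27. Resting Th2 cells were higher than resting naive cells by 0.87 in WT (adjusted p = 0.0197), which was lost without resting Th2 replicate A (0.75) or resting naive replicate C (0.68). In BAF180-deficient cells this difference was 0.56 (adjusted p = 0.13), and it was 0.83 (adjusted p = 0.0334) without resting naive replicate A.

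On stimulation of naive cells the Rb1 probes gave unlike calls. The brightest probe differed by -0.39 in WT (adjusted p = 0.282) and fell by 0.70 in BAF180-deficient cells (adjusted p = 0.0482). The second probe fell by 0.63 in WT (adjusted p = 0.00507) and differed by -0.40 in BAF180-deficient cells (adjusted p = 0.0691). All 4 values were below 0. The call of the brightest probe was lost without resting naive BAF180-deficient replicate A (-0.42) or B (-0.71) or stimulated naive replicate A (-0.56) or B (-0.64), and with a replicate block (-0.70, adjusted p = 0.056).

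Rbl1, which encodes p107, was also highest in resting Th2 cells. Its values were 4.95, 5.74 and 5.93 in resting naive WT cells, and 7.04 ± 0.08 (SD, n = 3) in resting Th2 WT cells with a lowest value of 6.98 and a highest of 7.13. This was a rise of 1.50 ± 0.26 (adjusted p = 1.57e-04), and Rbl1 rose by 1.15 in BAF180-deficient cells (adjusted p = 0.00187). After stimulation of Th2 cells it was down to 5.61, 5.92 and 5.99 in WT, a fall of 1.19 (adjusted p = 0.00155). These 3 WT groups did not overlap, except for resting naive and stimulated Th2 cells. The fall in BAF180-deficient cells was 0.79 (adjusted p = 0.0296) and was lost without stimulated Th2 replicate B (-0.77) or C (-0.71) or resting Th2 replicate A (-0.81) or B (-0.62). Stimulation of naive cells gave rises of 0.66 in WT (adjusted p = 0.0463) and 0.76 in BAF180-deficient cells (adjusted p = 0.0239). The first was lost without resting naive WT replicate B (0.37) or stimulated naive WT replicate B (0.50) or C (0.68), and the second without resting naive BAF180-deficient replicate A (0.72) or stimulated naive replicate B (0.61) or C (0.55).

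Rbl2, which encodes p130, the pocket protein best known from resting cells, was measured by 2 probes of 50 bases, shown because both failed on most arrays. They are written as in the array's annotation, by the base of the transcript where each begins.
Rbl2 probe from base 179: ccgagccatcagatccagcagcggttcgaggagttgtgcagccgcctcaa
Rbl2 probe from base 2779: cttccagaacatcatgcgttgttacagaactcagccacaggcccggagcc
The first was detected on none of the 24 arrays. The second was detected on 5, all of them from resting Th2 cells. Its values there were 4.36, 4.79 and 5.16 in WT, with the lowest not detected, and 4.58, 4.58 and 4.72 in BAF180-deficient cells. In WT it passed the test against resting naive cells (difference 0.52, adjusted p = 0.00581) and against stimulated Th2 cells (-0.52, adjusted p = 0.00672), and both were lost without resting Th2 WT replicate C (0.32 and -0.32). In BAF180-deficient cells it passed the second of these (-0.42, adjusted p = 0.026), which was lost without any one of stimulated Th2 replicates A (-0.43), B (-0.43) or C (-0.42) or resting Th2 replicates A (-0.38) or B (-0.45). Since Rbl2 was not detected in the other states, these differences are bounded by the lowest detected signal, and the bound was at least 1.08-fold lower in stimulated than in resting Th2 WT cells and gave no fold in the other comparisons.

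**Figure D3:**
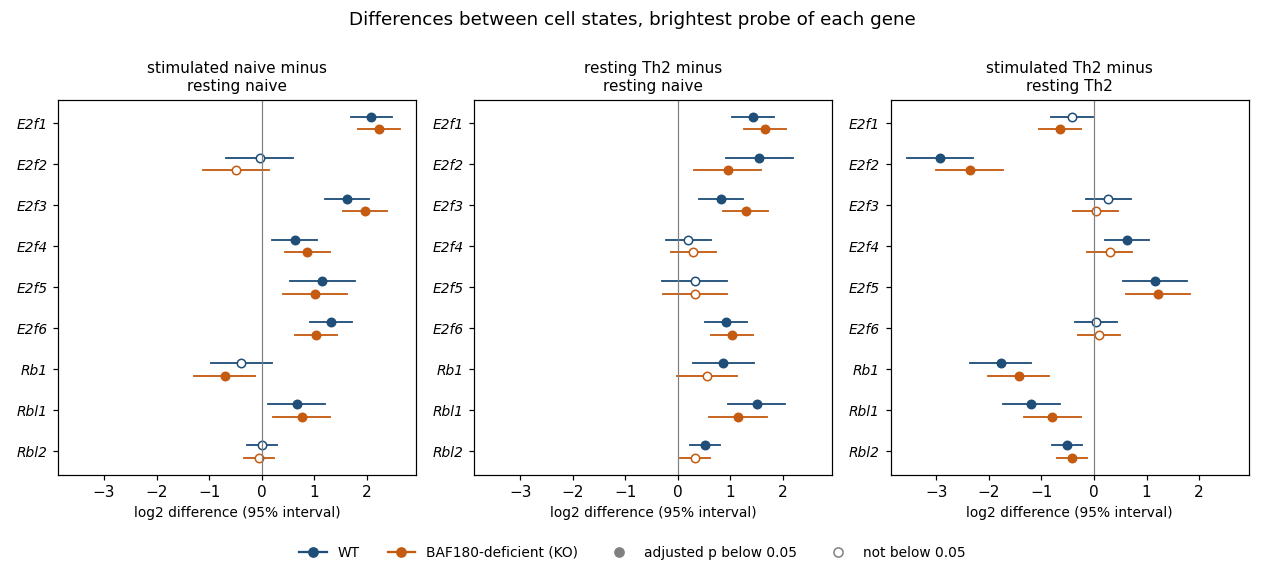
Log2 differences between cell states (horizontal axis) with 95% intervals for the brightest probe of each of the 9 genes (vertical axis), in WT (blue) and BAF180-deficient cells (orange), filled where the adjusted p is below 0.05. On stimulation of naive cells E2f1 lies farthest right, and on stimulation of Th2 cells E2f2, Rb1 and Rbl1 lie left of 0 while E2f5 lies right of it.

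Counted over the genes, stimulation of naive WT cells raised 6 of 9 (E2f1, E2f3, E2f4, E2f5, E2f6 and Rbl1) and lowered none, where 43.6% of all kept probes were called in either direction and 23.6% as higher. In BAF180-deficient cells 6 rose and Rb1 fell, with 41.6% of all probes called (22.3% higher, 19.3% lower). The median difference was 0.66 in WT and 0.87 in BAF180-deficient cells, against -0.012 and -0.006 over all genes. Between resting naive and resting Th2 WT cells 7 of 9 were higher in Th2 cells, all but E2f4 and E2f5, with 34.4% of all probes called and 18.4% higher. In BAF180-deficient cells 5 were higher, with 34.7% called and 18.8% higher. Stimulation of Th2 cells lowered 4 of 9 in WT (E2f2, Rb1, Rbl1 and Rbl2) and raised E2f4 and E2f5, with 27.3% of all probes called (13% higher, 14.3% lower). In BAF180-deficient cells it lowered 5, E2f1 included, and raised E2f5, with 25.8% called (12% higher, 13.8% lower). Rbl2 is counted in the WT step to resting Th2 cells and in the falls on stimulation of Th2 cells in both genotypes. It was detected only in resting Th2 cells, and its bounds, given above, were small or gave no fold. Both Th2 comparisons in a genotype share the resting Th2 arrays, and both comparisons with resting naive cells share those arrays.

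The question of the study, what loss of BAF180 does, was put to the family in each state. The paper lists E2f1 and E2f6 among genes that appeared repressed by BAF180 in Th2 cells, and Rb1 among those that appeared activated. The cutoffs of its 4 criteria were used here (p below 0.05 and FDR below 0.3, with a mean signal above 0 and a Z-ratio past 1.5 in size). The p and FDR came from limma on quantile-normalized log2 values, where the paper used Z scores, so these calls are not the paper's own. By them 0 of 9 genes were called in resting naive, stimulated naive, resting Th2 and stimulated Th2 cells, where 0.681%, 0.112%, 0.0842% and 0.0913% of all probes were called. At an unadjusted p below 0.05 in limma, 0, 0, 0 and 1 of the 9 passed, where 6.83%, 2.25%, 3.43% and 2.79% of all probes did. Averaged over the 4 states, 0 of 9 were called against 2.13% of all probes, and 1 passed unadjusted against 7.52% of all probes. The differences in single states ran from -0.50 to 0.45 (log2), and their SE was between 0.14 and 0.30. The 95% intervals bound what could be missed, and their outermost ends were -1.04 (Rbl1 in resting Th2 cells) and 0.85 (E2f6 in stimulated Th2 cells). With 1 resting naive array left out, WT replicate C, E2f2 was called there at 0.75 (adjusted p = 0.133), against 0.21 with all arrays, and this array is the one with the high red cell genes. Of the CD8 T cell markers Cd8a and Cd8b1 only Cd8b1 was kept. It was detected on every array, with means of 8.57 (WT) and 8.42 (BAF180-deficient) in resting naive cells, 7.79 and 7.005 in stimulated naive cells, 7.98 and 7.02 in Th2 cells at rest, and 7.79 and 7.09 in Th2 cells after stimulation, and its part in the genotype differences was not tested.

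**Figure D4:**
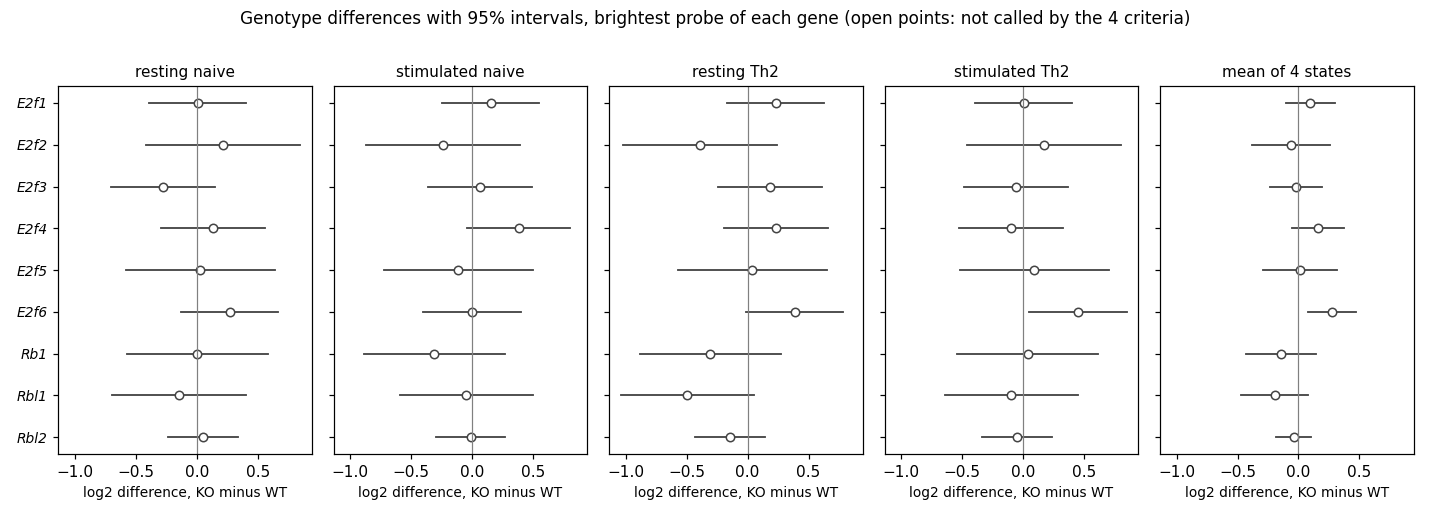
Log2 difference of BAF180-deficient minus WT cells (horizontal axis) with its 95% interval for the brightest probe of each of the 9 genes (vertical axis), in the 4 states and in their mean. Every point is open, which marks 0 of 9 genes called, and for E2f6 the interval lies above 0 in stimulated Th2 cells and in the mean of the states.

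E2f6 had the smallest unadjusted p of the 9 genes in resting naive, resting Th2 and stimulated Th2 cells and in the mean of the states. In resting Th2 cells the WT values were 7.87, 8.05 and 8.34 and the BAF180-deficient values 8.35, 8.48 and 8.59. In stimulated Th2 cells they were 8.09, 8.09 and 8.20 against 8.52, 8.60 and 8.61. All BAF180-deficient arrays lay above all WT arrays in both Th2 states, a separation shown by 10.1% and 7.31% of all probes there. The differences were 0.39 ± 0.19 and 0.45 ± 0.19 (adjusted p = 1.00 for both), with unadjusted p of 0.0574 and 0.0288. In naive cells the arrays overlapped, with 0.27 at rest and a difference of -0.00 after stimulation. Over the 4 states the mean difference was 0.28 ± 0.10 (adjusted p = 0.336), which misses the FDR of 0.3.

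The adjusted p for E2f6 lay close to the limit, and its call changed with the fit. With the replicate letter as a block (the replicate block) the mean difference of 0.28 met all 4 criteria, at an adjusted p of 0.269. It also met them without resting Th2 WT replicate C (0.31, adjusted p = 0.228), without resting naive BAF180-deficient replicate A (0.30, 0.292), without resting naive WT replicate C (0.32, 0.137) and without stimulated naive WT replicate A (0.32, 0.217). Without any other single array it lay between 0.23 and 0.30 and was not called. The second probe of E2f6 gave 0.24 ± 0.09 (adjusted p = 0.351) and the third, dimmer one 0.12 ± 0.10 (adjusted p = 0.903). The second probe was separated in the same direction in resting Th2 cells (0.31) and in stimulated naive cells (0.11), and in stimulated Th2 cells it overlapped (0.34).

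**Figure D5:**
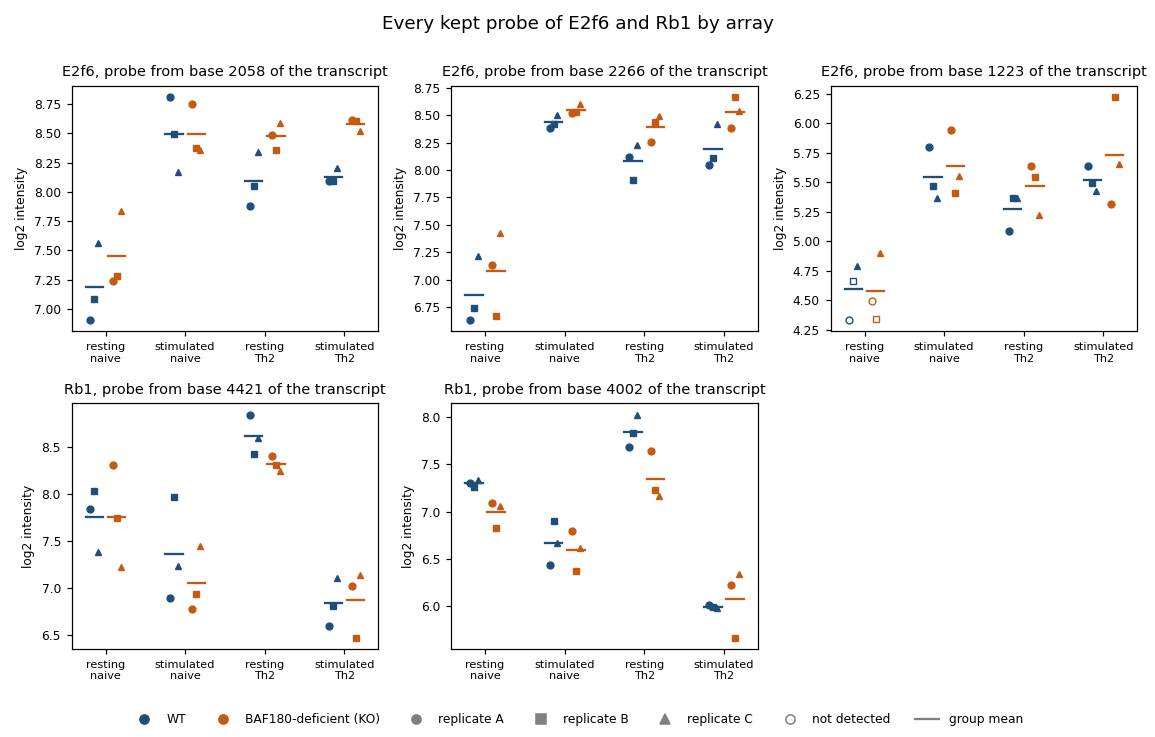
Log2 intensity (vertical axis) of the 3 kept probes of E2f6 and the 2 of Rb1 on each array by cell state (horizontal axis), with WT in blue, BAF180-deficient in orange and bars for group means; panel titles give the base of the transcript where the probe begins. The brightest E2f6 probe separates the genotypes in both Th2 states, and both Rb1 probes do so in resting Th2 cells. The dimmer Rb1 probe also separates them in resting naive cells.

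In resting Th2 cells more members were separated than elsewhere. They were E2f1 (0.23), E2f6 (0.39), Rb1 (-0.31) and Rbl1 (-0.50), which are 4 of 9 genes, against 1 of 9 in each other state. Of all probes 10.1% were separated in this state, 7.99% in resting naive, 6.46% in stimulated naive and 7.31% in stimulated Th2 cells. Both E2Fs were higher and both pocket proteins lower in BAF180-deficient cells. Rbl1 stood between 6.98 and 7.13 in WT and at 6.23, 6.50 and 6.89 in BAF180-deficient cells. The second Rb1 probe stood at 7.69, 7.83 and 8.03 in WT and at 7.17, 7.23 and 7.65 in BAF180-deficient cells, a difference of -0.50 ± 0.17 with an unadjusted p of 0.0087 (adjusted p = 1.00). E2f2 differed by -0.39 without separation in its brightest probe and by -0.43 with separation in its second probe. An exact two-sided permutation test of 3 arrays against 3 cannot go below p = 0.1, so a separated gene is at its limit.

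The other separated members were E2f3 in resting naive cells (-0.28) and E2f4 in stimulated naive cells (0.38). E2f3 was near background there in BAF180-deficient cells. E2f4 stood at 6.85, 7.37 and 7.45 in WT and at 7.48, 7.64 and 7.68 in BAF180-deficient cells. The second Rb1 probe was also separated in resting naive cells, at 7.27 to 7.33 in WT and 6.82 to 7.10 in BAF180-deficient cells.

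Whether the genotype changed the response of a member to stimulation or differentiation was tested as an interaction. For stimulation of naive cells, for resting Th2 against resting naive cells, and for stimulation of Th2 cells, 0 of 9 genes passed an adjusted p of 0.05 in limma, and 0.00702%, 0.00702% and 0% of all probes did. The lowest unadjusted p was that of the second Rb1 probe for stimulation of Th2 cells, 0.0268, at an interaction of 0.58. Its fall was 1.85 in WT and 1.27 in BAF180-deficient cells.

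The genes around the family were followed in the same comparisons. Of the DP partners, Tfdp1 rose by 2.09 on stimulation of naive WT cells (adjusted p = 6e-08) and by 2.01 in BAF180-deficient cells, and was higher by 1.83 and 1.48 in resting Th2 than in resting naive cells. Tfdp2 fell by 0.75 on stimulation of Th2 WT cells (adjusted p = 0.0205), where it was detected on 1 of 3 arrays. In BAF180-deficient Th2 cells it differed by -0.33 (adjusted p = 0.366). The atypical family member E2f7 did not pass the detection filter. The MuvB core forms the DREAM complex with p107 or p130, E2F4 or E2F5 and a DP protein, and binds B-Myb (Mybl2) instead later in the cycle. Of the core and Mybl2, 3 of 6 genes were kept. Mybl2, detected on 2 of 3 resting naive WT arrays, rose by 2.00 on stimulation of naive WT cells and fell by 0.72 on stimulation of Th2 WT cells, and Lin54 rose by 0.52 and fell by 0.55. On stimulation of BAF180-deficient Th2 cells Mybl2 fell by 1.07 (adjusted p = 7.88e-04) and Lin54 differed by -0.19 (adjusted p = 0.548).

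Most target genes of E2F in DNA replication rose on stimulation of naive cells. On stimulation of naive WT cells 19 of 21 kept genes rose and none fell, where 23.6% of all probes were higher. The median was 2.31 against -0.012 over all genes. Ccna2, the cyclin of S phase, was not detected on any array of either group. Of the 19, 2 were not detected on any resting naive WT array. The top 2 by fitted difference were Mcm10, a replication factor, at 4.14 (adjusted p = 1.74e-09) and Cdc45, part of the replicative helicase, at 3.29. They were detected on 1 and 2 of the 3 resting naive WT arrays, so these sizes rest in part on background. In resting Th2 WT cells 19 of 21 were also higher than in resting naive cells, with a median of 2.06, where 18.4% of all probes were higher. In BAF180-deficient cells 20 of 21 passed in each of these comparisons, with medians of 2.33 and 1.82. Of all probes 41.6% and 34.7% passed there in either direction. Stimulation of Th2 cells lowered 9 of 21 in WT and 4 of 21 in BAF180-deficient cells, with medians of -0.72 and -0.52, where 14.3% and 13.8% of all probes were lower. Tk1, thymidine kinase, led the falls at -2.34 and -1.60. Between genotypes 0 of 21 were called in any state, where only 0.0842% to 0.681% of all probes were called, and the medians lay between -0.02 and 0.10. The interaction for stimulation of Th2 cells was called in 0 of 21 and in 0% of all probes.

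The kinases that release E2Fs from pocket proteins, and their inhibitors, changed in both directions. On stimulation of naive WT cells the E cyclins Ccne1 and Ccne2 rose and the D cyclin Ccnd1 fell. Ccne1 was not detected on any resting naive WT array and was at least 2.32-fold higher after stimulation. Ccne2, detected on 1 of 3 resting naive WT arrays, differed by 1.74, and Ccnd1, detected on 2 of 3 stimulated naive WT arrays, by -3.18. Only in the resting naive groups was Ccnd1 detected on every array. The myeloid markers given above were highest on the same arrays, and the part of other cells in this fall was not tested. On stimulation of Th2 cells Ccnd3 fell, with differences of -3.51 in WT and -3.71 in BAF180-deficient cells. Cdkn1b, the inhibitor p27, fell by 3.05 on stimulation of naive WT cells (adjusted p = 9.08e-10), was lower by 1.57 in resting Th2 than in resting naive WT cells and fell by 2.08 on stimulation of Th2 WT cells. Cdkn1a, the inhibitor p21, was higher by 3.01 in resting Th2 than in resting naive WT cells.

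Between genotypes 1 of the 50 kept genes of these lists was called in the mean of the 4 states, where 2.13% of all probes were called. It was Cdkn2a, whose products restrain cyclin D kinases and stabilise p53. The paper lists Cdkn2a among genes that appeared repressed by BAF180 in Th2 cells. Over the 4 states it was higher in BAF180-deficient cells by 0.40 ± 0.11 (adjusted p = 0.161). It was not detected on any resting naive array. In resting Th2 cells WT arrays ran from 5.19 to 5.75 and BAF180-deficient arrays from 5.94 to 6.50. The groups did not overlap there, with a difference of 0.83 (adjusted p = 0.465). In stimulated Th2 cells they overlapped, with 0.42.

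For E2F6 the partners in its Polycomb complex were followed too. Of 7 kept genes 0 were called between genotypes in any state, where only 0.0842% to 0.681% of all probes were called. On stimulation of naive WT cells Pcgf6, which defines that complex, rose by 1.12 (adjusted p = 3.7e-04), and it rose by 0.91 on stimulation of Th2 WT cells. In resting Th2 WT cells Max was lower than in resting naive cells by 1.12. Of the germ line genes known to be silenced through E2F6, 3 of 5 were kept, and 0 were called between genotypes, beside the same shares of all probes. Stag3, a meiotic cohesin subunit, passed the test on stimulation of naive WT cells (adjusted p = 0.0294), but it was not detected on any resting naive WT array and the bound gave no fold.

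The genes with the pattern most like each member were found by the root mean square (RMS) difference of centred log2 values over the 24 arrays. For E2f1 they were Ezh2, Siva1, Orc6, Rfc5 and Fen1, with RMS differences of 0.25 to 0.28 against an RMS of 0.82 for E2f1 itself. For E2f2 the nearest was Apaf1 (0.38 against 1.01), followed by Cep19, Triobp, Kcnab2 and Agfg2. E2f3 was nearest to Nme1 (0.23 against 0.69), E2f4 to Cherp (0.21 against 0.40) and E2f6 to Mrpl35 (0.23 against 0.53). Rb1 was nearest to Arhgap1 (0.32 against 0.68) and Rbl1 to Kif18a (0.25 against 0.58). No member was among the 5 nearest genes of another. Probes of 1 gene were about as near to each other. The 2 Rb1 probes differed by 0.33, the 2 E2f2 probes by 0.24, and the E2f6 probes by 0.23 to 0.31.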

How the data were processed

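The members and gene lists were chosen with earlier results of these data known. RNA of 24 samples was hybridized to Illumina MouseRef-8 v2 BeadChips. The deposited intensities are GenomeStudio (1.6.0 in the submitters' processing notes) average bead signals per probe, not normalized or background-subtracted, with a deposited detection p-value against negative controls. No samples were pooled. The labels give the groups. The deposited table has 25697 probes. A probe was kept if any array detected it at p of 0.02 or less, which left 14246.

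With limma 3.58.1 (R 4.3.3), intensities were normalized by neqc (detection p-values, offset 16), which corrects background, quantile normalizes and takes log2. A model with 8 group means was fitted (lmFit, eBayes), with 16 residual degrees of freedom, 20.3 after moderation, and Benjamini-Hochberg adjustment over the kept probes. Genotype differences were called by the 4 criteria of the methods, with p and FDR from limma and the Z-ratio as the difference over the SD of all differences. State differences and interactions were called at an adjusted p below 0.05. A gene was counted by its brightest kept probe. Probe symbols were brought up to date from RefSeq, 16938 through the Entrez ID, 7420 through the accession, 465 through the symbol and 553 through a synonym. Scripts were tested on simulated data.

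Named genes were all members, at most the 2 highest and 2 lowest called genes of a list per comparison, genes of a count of 5 or fewer, and the 5 nearest genes. The main fit took the arrays as separate samples, and pairing by replicate letter was only an alternative (the replicate block). The methods describe paired mice, and the deviations of WT and BAF180-deficient arrays of a letter correlated over the states at 0.30 (A), 0.14 (B) and 0.52 (C). Replicates of a group correlated at 0.949 to 0.989. Labels name replicates but not whether cultures were separate, so p-values measure the spread between these samples. With 3 arrays a group, the median SE of a genotype difference was 0.19. Alternatives were other normalizations, filters, call rules and probe choices, a replicate block, fits of the compared groups and leaving out each array. E2f8 and the file coordinates of probes, whose build is not given in the sources used here, were not used. Values of some list and neighbour genes are not reported here.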

Additional observations from a re-analysis of the deposited data

How the results depend on the processing

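Of 106 values for genotype differences of members under other settings, 102 kept their direction and side of the threshold, as did 388 of 432 for differences between states. With 1 array left out these counts were 80 of 90 and 278 of 324. With the letter as a block (replicate block), 1 member was called in the mean of the 4 states, E2f6, and no other member count moved by over 1.5 times. By the 4 criteria in place of the adjusted p, stimulation of naive cells called 2 members in each genotype, the step to resting Th2 cells 3 in WT and 2 in BAF180-deficient cells, and stimulation of Th2 cells 3 in BAF180-deficient cells. With only the compared groups fitted, stimulation of naive BAF180-deficient cells called 4. The shares of all probes called by that rule and in that fit are not reported here, so these counts have no background beside them. Leaving out single arrays gave 0 to 1 members between genotypes in resting naive cells and in the mean of the states.

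Some values changed sign. With Z-score normalization (in Z units) the genotype difference of E2f6 in stimulated naive cells was 0.0156, and the state differences were 0.0722 for E2f2 and -0.0341 for Rbl2 on stimulation of naive WT cells and -0.0857 for E2f3 on stimulation of Th2 BAF180-deficient cells. With the mean of a gene's probes E2f6 gave 0.0668 and E2f2 0.144 in the same comparisons, and with the 6 arrays of the state normalized alone E2f6 gave 3.15e-04. With 1 array left out, the genotype difference ranged from -0.162 to 0.158 for E2f6 in stimulated naive cells and from -0.0848 to 0.752 for E2f2 in resting naive cells. The differences on stimulation of naive WT cells ranged from -0.340 to 0.497 for E2f2 and from -0.0163 to 0.0394 for Rbl2, and those on stimulation of Th2 cells from -0.208 to 0.185 for E2f3 (BAF180-deficient) and from -0.0704 to 0.164 for E2f6 (WT). The cause was not tested. E2f3, E2f5 and Rbl2 were not detected on every array, so their values there are bounds, not levels.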
